A study of Mus musculus with 8 samples.

Results

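The regions described here are the 500-kb bins of mouse chromosome 5 (mm9), bins 1392 to 1697 of the deposited Hi-C contact matrices, and the contacts between them in mouse embryonic stem cells (mESCs). Bins were selected on their measured coverage. A bin had to reach 0.1 of the median coverage of the chromosome in each sample, and 294 of the 306 bins did. Across the autosomes and the X chromosome 5093 bins were kept. The 12 bins left out were the 6 bins before 3 Mb, the bin at 25.5 to 26 Mb, 4 bins from 94 to 96 Mb, and the last bin. At the threshold, the best covered bin left out (152.5 to 153 Mb) had 0.063 of the median and the least covered bin kept (11.5 to 12 Mb) had 0.133.

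Hi-C counts how often pairs of genomic segments are crosslinked next to each other in the nucleus. Segments fall into A compartments, which are gene-rich and active, and B compartments, which are gene-poor and lie largely at the nuclear and nucleolar peripheries. Homotypic contacts (A with A, B with B) outnumber heterotypic contacts (A with B) at the same genomic distance, which gives the plaid pattern of a Hi-C map. In the mouse, B compartments are rich in L1 (LINE1) retrotransposons and A compartments in SINE B1 repeats.

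There were 4 Hi-C samples, 2 of mESCs given an antisense morpholino oligonucleotide against L1 RNA (L1 AMO) and 2 of mESCs given a scrambled oligonucleotide (SCR AMO). Both oligonucleotides were delivered by nucleofection at 5 nmol per 100 µl, nucleofected cells were enriched by flow sorting at 12 h, and cells were harvested 36 h after transfection. All 4 samples were grown in serum with leukemia inhibitory factor (LIF). The matrices hold no RNA, so neither the level of L1 RNA nor markers of mESCs could be checked in them, and a transient knockdown by 1 oligonucleotide has no second L1 sequence to compare with. The labels do not say whether the replicates of a group came from separate cultures. The methods of the study describe independent transfection experiments, and p-values measure the spread between these samples. The designed oligonucleotides define the contrast and are given 5′ to 3′.
L1 AMO: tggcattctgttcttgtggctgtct
SCR AMO: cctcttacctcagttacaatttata
Both are 25 bases long. The L1 AMO has 12 G or C bases (48%) and the SCR AMO has 8 (32%), and the same base stands at 6 of the positions, with a longest shared run of 4 bases.

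Depth differed between samples. Contacts within chromosome 5 numbered 5270377 and 1035850 in SCR AMO replicates 1 and 2, and 2784954 and 2235962 in L1 AMO replicates 1 and 2. At 2 Mb or more a pair of bins held a mean of 38.9 counts in the deepest sample and of 7.03 in the shallowest, SCR AMO replicate 2, where 10.8% of pairs were at 0. The share of chromosome 5 contacts that reached other autosomes was 35.0% (95% Wilson interval 34.9 to 35.0) and 35.5% (35.4 to 35.5) in the SCR AMO samples, and 26.4% (26.4 to 26.5) and 24.2% (24.1 to 24.2) in the L1 AMO samples. These intervals cover counting error only. The groups thus differed in this share, and its part in the differences that follow was not tested. The totals of the SCR AMO matrices depart from the read pair numbers listed for those libraries, while the L1 AMO totals are close to theirs, so unlike handling of the reads and the AMO itself cannot be told apart here.

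To label bins without using the contacts under study, A and B were assigned from the leading pattern of contacts of chromosome 5 bins with the other 18 autosomes, pooled over the 4 samples. Its size per bin is called the label score here, positive for A and negative for B. Of the 294 bins, 121 were A and 173 were B (41.2% A). They formed 33 blocks, which are runs of bins with the same label, numbered here from the centromere end. Of these, 16 were A and 17 were B, 6 held a single bin and 16 spanned at least 2 Mb. Labels from contacts within the chromosome had the same sign in 91.8% of bins. Labels computed in each sample alone differed from the pooled ones in 3 and 4 bins in the SCR AMO samples and in 6 and 8 bins in the L1 AMO samples, so the layout of blocks was largely shared between the groups. The eigenvector of contacts within chromosome 5, a second view of the same plaid, had a correlation over 294 bins of 0.994 between the SCR AMO samples and of 0.994 between the L1 AMO samples. Between samples of different groups it ran from 0.974 to 0.985. Neighbouring bins are not independent, and these correlations are descriptions.

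The chromosome alternated between a few long blocks and stretches of short ones. The longest B block was block 9 (38 to 65 Mb, 54 bins), followed by block 1 (3 to 21 Mb, 36 bins), block 15 (77.5 to 92.5 Mb, 30 bins), block 11 (67 to 73.5 Mb, 13 bins), block 17 (93.5 to 100.5 Mb, 10 bins) and block 29 (131 to 134.5 Mb, 7 bins). The longest A block was block 26 (110 to 126.5 Mb, 33 bins), followed by block 30 (134.5 to 146 Mb, 23 bins), block 8 (29.5 to 38 Mb, 17 bins), block 32 (147.5 to 152 Mb, 9 bins), block 28 (127.5 to 131 Mb, 7 bins) and block 24 (106 to 109 Mb, 6 bins). The 4 longest B blocks thus lay before 92.5 Mb, and 5 of the 6 longest A blocks lay beyond 106 Mb. The last block, block 33 (152 to 152.5 Mb), was a single B bin beside the end of the chromosome.

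Contacts within chromosome 5 were first compared by genomic distance, because compartments are read from distant contacts. In L1 AMO cells a larger share of contacts lay between 2 and 10 Mb and a smaller share beyond 10 Mb, while the share within 2 Mb overlapped between the groups. The share between 2 and 10 Mb was 10.2% and 9.39% in SCR AMO and 11.6% and 11.5% in L1 AMO cells, a difference of 1.76 percentage points (9.80 ± 0.58 against 11.6 ± 0.082, SD, n = 2 each, two-sided exact permutation p = 0.33). The L1 AMO samples were thus the 2 higher ones. Beyond 10 Mb the shares were 18.8% and 17.3% against 16.3% and 15.7%, lower by 2.08 percentage points, and again the groups did not overlap (exact permutation p = 0.33). Within 2 Mb they were 71.0% and 73.3% against 72.1% and 72.8%, and the L1 AMO samples lay between the SCR AMO samples (exact permutation p = 1). With 2 samples against 2, no exact test can give a p under 0.33, and all single values of the chromosome share this limit. All 19 autosomes had groups that did not overlap in the shares at 2 to 10 Mb and beyond 10 Mb, so chromosome 5 did not stand apart in this.

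The difference changed sign with distance. Contacts at 0.5 Mb had a log2 ratio of L1 AMO over SCR AMO means of -0.13, those over 2 and up to 5 Mb of 0.30 and those over 5 and up to 10 Mb of 0.15. The ratio was -0.11 over 10 and up to 20 Mb and -0.10 over 20 and up to 40 Mb. It was -0.25 over 40 and up to 80 Mb and -0.49 beyond 80 Mb. The gain was thus centred a few Mb from the diagonal, and the deficit deepened towards the far ends of the chromosome. Beyond 80 Mb the shares were 1.85% and 1.64% in SCR AMO and 1.34% and 1.15% in L1 AMO cells. In these 6 distance bands over 2 Mb, and at 0.5 Mb, the groups did not overlap, whereas they overlapped inside a bin and at 1 to 2 Mb.

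**Figure D1:**
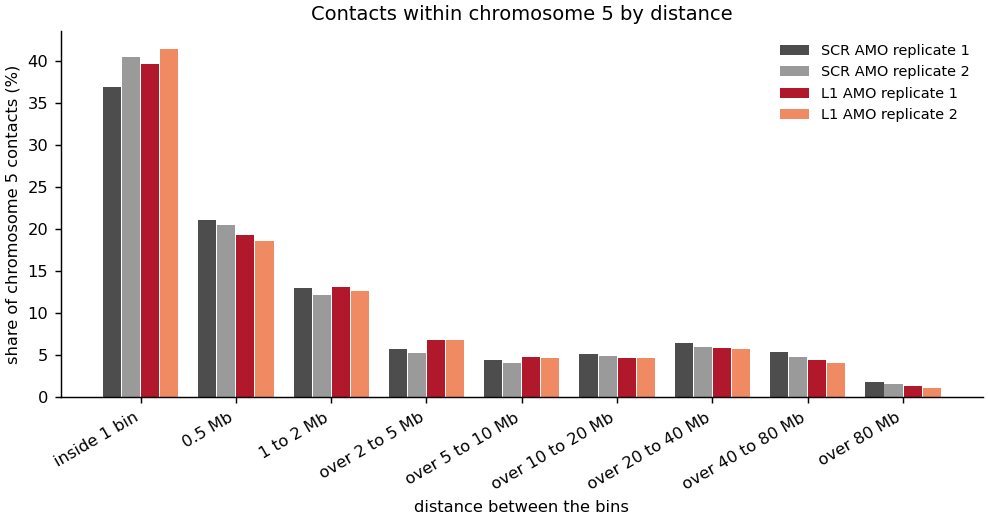
Share of contacts within chromosome 5 (y axis, percent of the balanced contacts of the chromosome) by distance between bins (x axis), with a bar for each sample. The L1 AMO bars stand above the SCR AMO bars at 2 to 10 Mb and below them beyond 10 Mb, down to 1.34% and 1.15% against 1.85% and 1.64% over 80 Mb.

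Compartment contacts were compared as observed/expected values, in which each contact is divided by the chromosome's mean at the same distance in the same sample, so that the shift in distance drops out. Values above 1 mean more contact than usual at that distance. Differences in these values are relative to that mean and are not differences in contact frequency. On this scale A-A contacts were weaker in L1 AMO cells, and B-B and A-B contacts were slightly stronger. For A-A pairs at 2 Mb or more the mean observed/expected was 1.46 and 1.45 in SCR AMO and 1.37 and 1.33 in L1 AMO cells, lower by 0.104 (exact permutation p = 0.33). For B-B pairs it was 1.17 and 1.17 against 1.20 and 1.20, higher by 0.028 (exact permutation p = 0.33). For A-B pairs it was 0.729 and 0.732 against 0.740 and 0.752, higher by 0.0156 (exact permutation p = 0.33). The groups did not overlap in any of the 3 classes, and the A-A difference was the largest of them. The direction for B-B contacts rests on the choice of bins. Among the 20% of bins with the most negative label scores the B-B difference was -0.0459, against 0.028 for all B bins.

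Compartment strength, which divides the mean of both homotypic values by the heterotypic one, was 1.80 and 1.79 in SCR AMO and 1.73 and 1.68 in L1 AMO cells (1.80 ± 0.011 against 1.71 ± 0.037, SD, n = 2 each, exact permutation p = 0.33). The groups did not overlap, and the difference of -0.0884 amounts to -4.93% of the SCR AMO mean. Its size depends on which bins enter, since it was -0.209 with labels from the SCR AMO samples' contacts within the chromosome and -1.16 when only the 20% of bins with the highest and the 20% with the lowest label scores were used. Chromosome 5 had a small difference among autosomes, 18th of 19 when ordered from the deepest fall, with chromosome 17 at the deep end (-0.164) and chromosome 4 at the shallow end (-0.0707). The mean strength of the other 18 autosomes was 1.66 and 1.67 in SCR AMO and 1.54 and 1.51 in L1 AMO cells. Chromosome 5 exceeded that mean by 0.141 and 0.119 in SCR AMO and by 0.191 and 0.173 in L1 AMO cells, so its lead was larger by 0.0519 in L1 AMO cells, with no overlap (exact permutation p = 0.33). In SCR AMO cells its strength was the 17th of 19 from the lowest, against a median of 1.66.

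**Figure D2:**
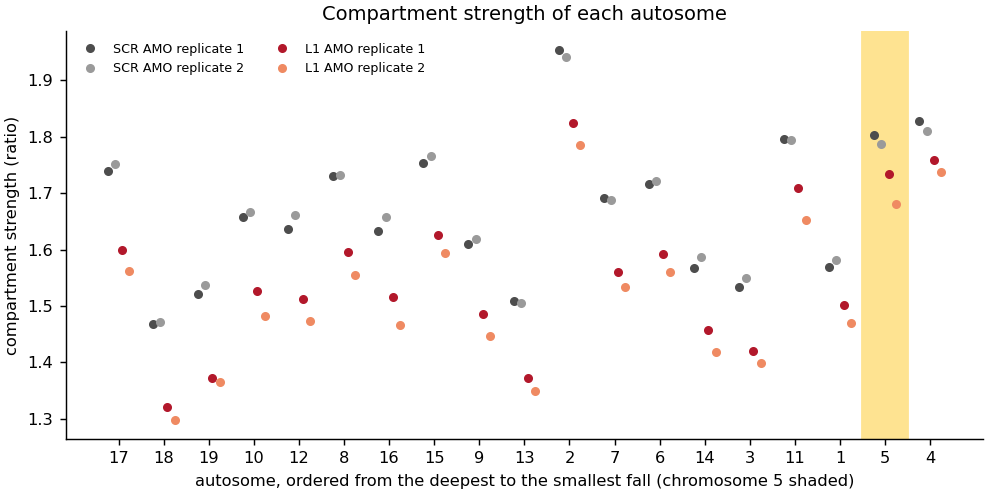
Compartment strength (y axis, ratio of mean homotypic to heterotypic observed/expected) of each autosome (x axis, ordered from the deepest to the smallest difference), with a point for each sample. Chromosome 5, shaded, has 1.80 and 1.79 in SCR AMO and 1.73 and 1.68 in L1 AMO cells, the second smallest difference, and the L1 AMO points lie below the SCR AMO points on all 19 autosomes.

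The small overall difference combined distances that behaved unlike each other. At 2 to 10 Mb strength was 1.45 and 1.43 in SCR AMO and 1.30 and 1.25 in L1 AMO cells. At 10 to 40 Mb it was 1.66 and 1.68 against 1.51 and 1.46. In both bands the groups did not overlap. Over 40 Mb it was 2.05 and 2.02 against 2.05 and 1.99, and the groups overlapped. The A-B value split in the same way. It was higher in L1 AMO cells at 2 to 10 Mb (0.745 and 0.754 against 0.806 and 0.832) and at 10 to 40 Mb (0.727 and 0.722 against 0.765 and 0.781), but over 40 Mb its groups overlapped (0.728 and 0.735 against 0.722 and 0.730). The A-A observed/expected was lower in L1 AMO cells in all 3 bands, from 1.22 and 1.22 to 1.10 and 1.07 at 10 to 40 Mb. The B-B observed/expected turned with distance. It was lower in L1 AMO cells at 2 to 10 Mb (1.19 and 1.18 against 1.18 and 1.17). Over 40 Mb it was higher (1.14 and 1.13 against 1.19 and 1.20). In these 4 samples the A-B observed/expected was thus above the SCR AMO range up to 40 Mb and overlapped it beyond. The frequency of A-B contacts, taken per bin pair relative to all contacts of the chromosome, behaved differently. In L1 AMO cells it was higher at 2 to 10 Mb (28.6%), with no overlap. At 10 to 40 Mb the groups overlapped (-0.63%), and over 40 Mb it was lower in L1 AMO cells, with no overlap (-19.7%).

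**Figure D3:**
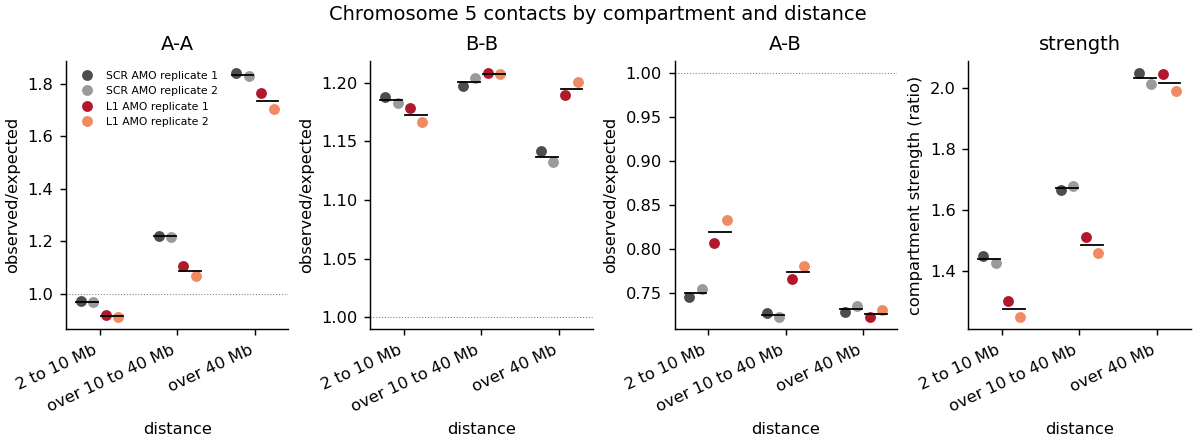
Mean observed/expected (y axis) of A-A, B-B and A-B bin pairs of chromosome 5 and compartment strength, at 3 ranges of distance (x axis), with a point for each sample and a line at each group mean. A-A points of L1 AMO cells lie lower at each distance, A-B points lie higher at 2 to 40 Mb, and over 40 Mb the strength of the groups overlaps (2.05 and 2.02 against 2.05 and 1.99).

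Each bin was then given a compartment score, the log2 ratio of its mean observed/expected with A bins over that with B bins, at 2 Mb or more. A score above 0 means that the bin met A bins more than B bins. In L1 AMO cells scores moved towards 0 at both extremes and downwards in the middle. Of 121 A bins, 55 fell and 1 rose (limma, adjusted p under 0.05 over 4780 bins of all autosomes), against 59.7% falling and 0.633% rising among A bins of all autosomes. The A bin that rose, named because it was alone and after its value was seen, lies at 33.5 to 34 Mb. Of 173 B bins, 49 rose and 22 fell, against 29.5% and 12.7% of B bins of all autosomes. These shares lie near the background for B bins and somewhat below it for A bins. Together 127 bins changed, and without L1 AMO replicate 2 the count was 73.

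Grouped by label score, the direction followed how strongly a bin was labelled. The 112 bins with label scores of -0.8 or less had median scores of -1.14 and -1.17 in SCR AMO and of -1.03 and -0.97 in L1 AMO cells, and 46 of them rose while 2 fell. The 33 bins just on the B side, with label scores between -0.4 and 0, had medians of 0.17 and 0.15 against -0.02 and -0.05, and 13 fell while none rose. These bins carried a B label from their contacts with other chromosomes, yet within chromosome 5 they met A bins more than B bins in SCR AMO cells. The 29 bins just on the A side, between 0 and 0.4, had medians of 0.46 and 0.43 against 0.32 and 0.25, and 16 fell. In the 77 bins with label scores above 0.8 the medians were 1.34 and 1.34 against 1.22 and 1.14, and 34 fell while 1 rose. The limits of these classes were set after the values were seen, so the classes carry no test of their own.

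**Figure D4:**
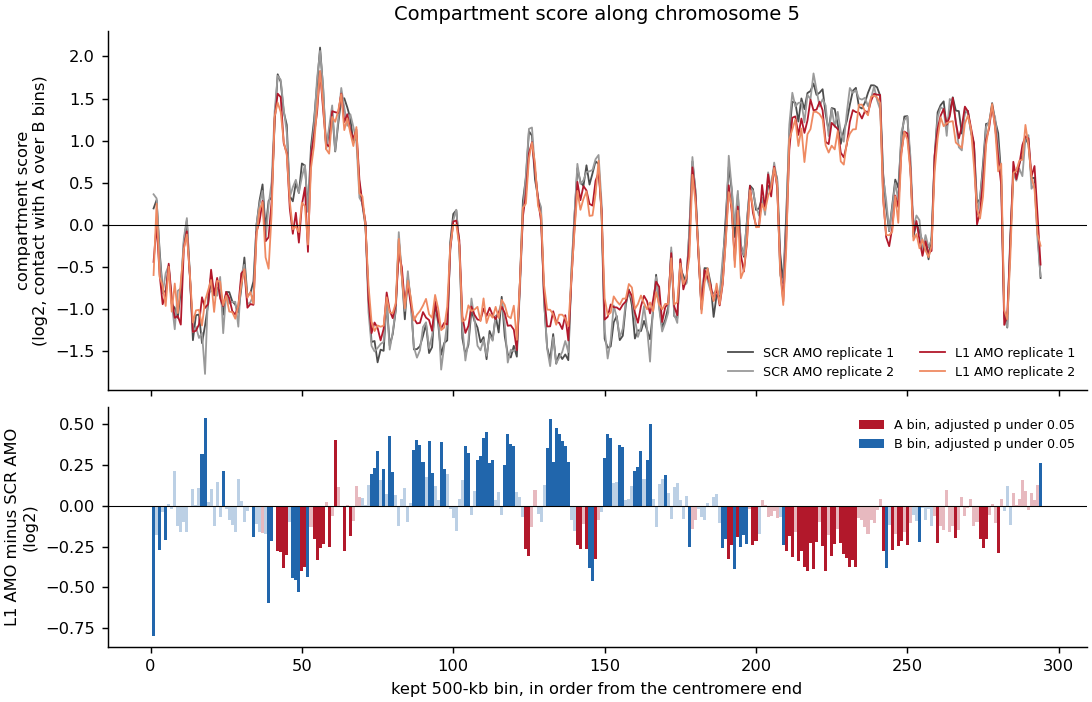
Compartment score of each kept bin of chromosome 5 in the 4 samples (upper panel, log2) and the difference of L1 AMO and SCR AMO means (lower panel, log2), with bins in order from the centromere end (x axis). Full colour marks bins with adjusted p under 0.05. The deep B stretches lie higher in L1 AMO cells (49 B bins rose) and most A stretches lie lower (55 A bins fell).

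Single bins reached large differences. The bin at 3 to 3.5 Mb, the first mapped bin next to the centromere, scored 0.19 and 0.36 in SCR AMO and -0.44 and -0.60 in L1 AMO cells, and fell by 0.80 (SE 0.08, limma adjusted p = 1.74e-06). It went from meeting A bins more to meeting B bins more. The bin at 22 to 22.5 Mb went from 0.29 and 0.23 to -0.15 and -0.52 (limma adjusted p = 5.36e-05). The bins at 27 to 27.5 and 27.5 to 28 Mb fell by 0.46 and 0.53, with limma adjusted p of 0.000114 and 3.03e-05. The bin at 76 to 76.5 Mb fell by 0.46 (limma adjusted p = 8.89e-05). Scores of the L1 AMO samples lay below those of the SCR AMO samples in each of these 5 bins, which follows largely from picking the largest called falls.

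The 5 bins with the largest rises lay inside long B blocks. The bin at 69 to 69.5 Mb in block 11 scored -1.60 and -1.68 in SCR AMO and -1.21 and -1.01 in L1 AMO cells, higher by 0.53 (SE 0.08, limma adjusted p = 4.21e-05). The bins at 70 to 70.5, 85.5 to 86 and 58.5 to 59 Mb rose by 0.48, 0.50 and 0.45, with limma adjusted p from 5.33e-05 to 0.000111. The rise of 0.54 at 11.5 to 12 Mb came from the least covered bin kept, whose SCR AMO scores were far apart (-1.20 and -1.77). Across the alternatives its adjusted p ran from 3.51e-09 to 0.323.

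Scores had opposite signs in the groups in 12 bins, and in all 12 the sign was positive in both SCR AMO samples and negative in both L1 AMO samples. Of these, 10 carried a B label and 2 an A label, and 9 passed the test. They lie at 3 to 3.5, 8.5 to 9, 22 to 22.5, 26.5 to 27, 27.5 to 28, 29 to 29.5, 73 to 73.5, 103.5 to 104, 105 to 105.5, 105.5 to 106, 126.5 to 127 and 127.5 to 128 Mb. Those that missed the threshold were at 8.5 (limma adjusted p = 0.0708), 73 (limma adjusted p = 0.0789) and 105.5 Mb (limma adjusted p = 0.0528). Of these 12, those at 22 to 29.5 Mb and at 103.5 to 106 Mb lie in stretches of short blocks. The share of bins with this pattern was 4.08%, against 2.99% over all autosomes, and 0 bins had the reverse pattern, against 0.0628%. The calls at 103.5 and 105 Mb (limma adjusted p = 0.0127 and 0.0182) passed in 5 of 9 alternatives each, with adjusted p up to 0.101 and 0.114.

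Averaged over blocks, 14 of 16 A blocks had scores that were lower in L1 AMO cells, with no overlap between the groups, against 91.9% of A blocks of all autosomes. Of the 17 B blocks, 12 were lower and 4 higher, against 45.5% and 37.0% of B blocks of all autosomes. The median difference over A blocks was -0.18 on chromosome 5 and -0.20 over all autosomes, and that over B blocks was -0.15 and -0.03. Block counts weigh short and long blocks alike, and the B blocks of chromosome 5 that were lower were mostly short.

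Most of the long A blocks scored lower in L1 AMO cells, to different degrees. Block 26 (110 to 126.5 Mb), the longest, scored 1.36 and 1.35 in SCR AMO and 1.17 and 1.08 in L1 AMO cells, a difference of -0.23. Its observed/expected with A bins was 1.27 and 1.27 against 1.16 and 1.13, and with B bins 0.500 and 0.506 against 0.524 and 0.543. Both parts of the score thus differed, and the loss of A contacts was the larger in this block. Block 28 (127.5 to 131 Mb) had a difference of -0.20, block 30 (134.5 to 146 Mb) of -0.10 and block 8 (29.5 to 38 Mb) of -0.08. Blocks 24 (106 to 109 Mb) and 32 (147.5 to 152 Mb) had overlapping groups: block 32 scored 0.65 and 0.58 in SCR AMO and 0.71 and 0.64 in L1 AMO cells. Of these long A blocks, the distal block 32 was the only one with a higher mean score in L1 AMO cells. In block 24 contacts with A bins (1.33 and 1.33 against 1.23 and 1.19) and with B bins (0.972 and 0.967 against 0.895 and 0.905) were both lower, which leaves their ratio alike.

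The long B blocks split. Block 9 (38 to 65 Mb) scored -1.08 and -1.07 in SCR AMO and -0.93 and -0.87 in L1 AMO cells, block 11 (67 to 73.5 Mb) -1.02 and -0.995 against -0.82 and -0.76, and block 15 (77.5 to 92.5 Mb) -0.99 and -0.97 against -0.84 and -0.82. These neighbours in the middle of the chromosome had higher observed/expected with A bins in L1 AMO cells. For block 9 the observed/expected with A bins was 0.615 and 0.616 against 0.666 and 0.689, while that with B bins was 1.20 and 1.20 against 1.22 and 1.22. Block 1 (3 to 21 Mb), next to the centromere, went slightly the other way on average, with 0.751 and 0.745 against 0.722 and 0.726 for A bins. Its score was -0.702 and -0.729 against -0.766 and -0.734, so the groups almost touched. Of its 36 bins, the edge bin at 3 to 3.5 Mb alone fell by 0.80 and weighs on this mean. Its other called bins went both ways, and the block was not tested without the edge bin. Block 17 (93.5 to 100.5 Mb) and block 29 (131 to 134.5 Mb) also scored lower in L1 AMO cells, by 0.06 and 0.09 on the log2 scale: -0.63 and -0.61 against -0.67 and -0.68 in block 17. The single bin of block 33 scored -0.63 and -0.61 against -0.47 and -0.25.

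Short blocks with a B label between A blocks had some of the largest differences. They are named here after their values were seen. Those named scored above 0 in both SCR AMO samples, so within chromosome 5 they met A bins more than B bins there. Block 5 (26 to 28 Mb) scored 0.37 and 0.42 in SCR AMO and 0.003 and 0.03 in L1 AMO cells, a difference of -0.38. Its contacts with B bins were 0.868 and 0.882 against 1.01 and 1.02, and with A bins 1.13 and 1.18 against 1.01 and 1.05. In both parts the groups did not overlap, so the stretch lost A contacts and gained B contacts at once. Block 13 (75.5 to 76.5 Mb) scored 0.54 and 0.64 against 0.24 and 0.11, and block 7 (29 to 29.5 Mb) 0.17 and 0.15 against -0.32 and -0.23. Short A blocks beside them behaved alike, as in block 6 (28 to 29 Mb), with 0.72 and 0.64 against 0.34 and 0.24.

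Contacts between blocks were tested as summed counts per pair of blocks. Of the 528 pairs on chromosome 5, 523 had a mean of at least 10 counts and entered a fit with the 9643 such pairs of all autosomes. With counts scaled to the sum of these pairs (edgeR, TMM), 267 pairs of chromosome 5 changed (adjusted p under 0.05). Of 120 A-A pairs, 86 fell and 8 rose, against 48.3% and 9.22% of A-A pairs of all autosomes. Of 134 B-B pairs, 27 rose and 13 fell, against 32.9% and 8.46%. Of 269 A-B pairs, 43 rose and 90 fell, against 25.2% and 18.4%. A-A and A-B pairs fell more often than over all autosomes. Over 40 Mb 57 of 65 A-A and 76 of 138 A-B pairs fell (87.7% and 55.1%), against 55.9% and 33.4% over all autosomes. Under 10 Mb 8 of 16 A-A and 28 of 50 A-B pairs rose (50.0% and 56.0%), against 38.6% and 72.4%, so the A-B rises were fewer than the background share. Without TMM the median log2 change of all pairs moved from -0.03 to -0.16, and 40 pairs of chromosome 5 rose and 264 fell, against 78 and 189 with TMM. Without SCR AMO replicate 1 the count of changed pairs was 129, and DESeq2 gave 162.

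The change with distance was removed by giving each pair the counts expected from its distances in each sample as an offset. Then 166 pairs of chromosome 5 changed, 67 up and 99 down. Of the 120 A-A pairs 65 fell and 0 rose, against 46.7% and 0.696% over all autosomes. Of the 134 B-B pairs 37 rose and 0 fell, against 30.7% and 2.46%. Of the 269 A-B pairs 30 rose and 34 fell, against 13.5% and 8.47%. The counts of 0 are edgeR's: at an unadjusted p under 0.05 there were 1 A-A rise and 3 B-B falls, and DESeq2 called 0 of each. The median log2 change was -0.23 for A-A pairs on chromosome 5 and also -0.23 over all autosomes, 0.16 and 0.14 for B-B pairs, and -0.05 and 0.01 for A-B pairs. With distance removed, A-A contacts fell and B-B contacts rose where they were called, much as over all autosomes. The classes follow the labels from contacts with other chromosomes. Blocks 3, 5, 7, 13, 23 and 27 are labelled B but scored above 0 within chromosome 5 in both SCR AMO samples. They had 3, 5, 3, 4, 1 and 4 of the B-B rises, with a pair between such blocks counted for each. Part of the B-B rises thus depends on the label used. A-B contacts went both ways, with falls above the share of all autosomes (12.6% against 8.47%) and rises below it (11.2% against 13.5%). These counts rest on the deepest library: without SCR AMO replicate 1 the fit called 46 pairs, and DESeq2 on all samples called 83.

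**Figure D5:**
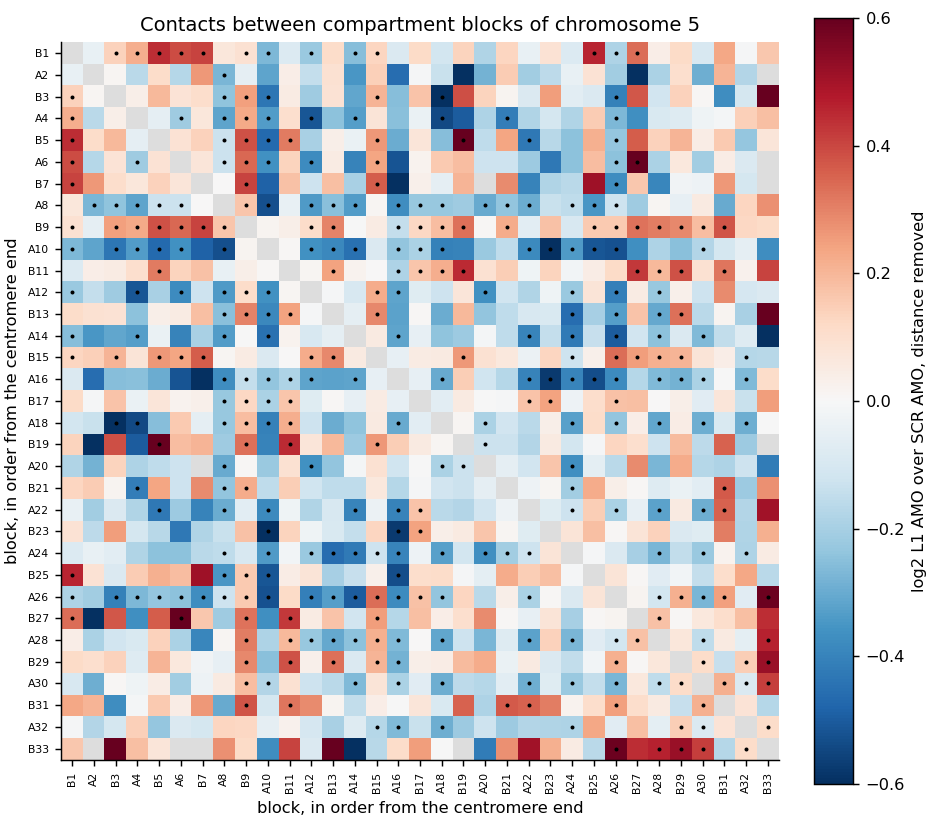
Log2 change (L1 AMO over SCR AMO, distance removed) of the contacts between each 2 of the 33 blocks of chromosome 5, in order from the centromere end on both axes and named by label and number. Dots mark adjusted p under 0.05 and grey marks pairs not tested. Columns of A blocks such as A10 and A16 are blue and the column of B9 is red. Of the 16 pairs of B9 with other B blocks 12 are up, against 30.7% of B-B pairs over all autosomes.

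Blocks differed in how many of their pairs were called, which also depends on the counts a pair holds, so on block length. Over all autosomes 46.7% of A-A pairs fell and 30.7% of B-B pairs rose, while 13.5% of A-B pairs rose and 8.47% fell. Block 9 (38 to 65 Mb), the longest B block, rose with 12 of the 16 other B blocks and fell with none, and with A blocks it rose in 8 of 16 pairs and fell in 1. Block 10 (65 to 67 Mb), a short A block between long B blocks and named after its values were seen, fell with 11 of 15 A blocks and with 7 of 17 B blocks and rose with none. Its mean observed/expected with A bins was 1.74 and 1.76 in SCR AMO and 1.49 and 1.44 in L1 AMO cells, and with B bins 0.981 and 0.948 against 0.905 and 0.883. It therefore lost distant contacts of both kinds. Block 26 (110 to 126.5 Mb) fell with 11 of 15 A blocks, and among its 17 pairs with B blocks 6 rose and 5 fell.

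The 5 largest falls among called pairs of blocks of at least 2 Mb were led by A blocks in the middle of the chromosome. Blocks 8 and 10 (29.5 to 38 and 65 to 67 Mb, both A) shared 6151 and 1121 contacts in SCR AMO and 2144 and 1536 in L1 AMO cells. Relative to the counts expected at their distance these were 2.55 and 2.59 against 1.87 and 1.68, a fitted log2 change of -0.53 (SE 0.050, edgeR adjusted p = 4.26e-11). The groups did not overlap. Blocks 10 and 26 (both A) went from 2.12 and 2.02 to 1.56 and 1.32 (log2 -0.52, SE 0.054, edgeR adjusted p = 4.43e-10). Blocks 4 and 12 (23 to 25.5 and 73.5 to 75.5 Mb, both A) went from 2.02 and 1.86 to 1.41 and 1.37, with fewer counts (935, 149, 285 and 214). The pair of blocks 5 and 10, B and A by label, went from 1.05 and 1.13 to 0.739 and 0.815 (log2 -0.47, SE 0.11, edgeR adjusted p = 0.00072). Blocks 12 and 26 (both A) went from 1.33 and 1.32 to 1.04 and 0.952 (log2 -0.41). Of these, 4 were A-A pairs more than 30 Mb apart, with observed contacts above the expected number in SCR AMO cells.

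By label, the 5 largest rises were 4 B-B pairs and 1 A-B pair. Block 5 (26 to 28 Mb) took part in 3 of them. Its B label came from contacts with other chromosomes, whereas within chromosome 5 it met A bins more in SCR AMO cells (scores of 0.37 and 0.42). The eigenvector within the chromosome was positive in its bins (0.43, 0.17, 0.53 and 0.15), so the B-B class of these 3 pairs depends on the label used. With block 1 it shared 4707 and 943 contacts in SCR AMO and 3279 and 2615 in L1 AMO cells, or 0.567 and 0.615 against 0.795 and 0.793 of the expected number (log2 0.45, SE 0.047, edgeR adjusted p = 5.69e-10). With block 9 it had 0.637 and 0.656 against 0.828 and 0.848 (log2 0.38, SE 0.043, edgeR adjusted p = 4.01e-09), and with block 11 it had 0.657 and 0.637 against 0.792 and 0.829 (log2 0.31, SE 0.076, edgeR adjusted p = 0.00147). These values were below 1 in all 4 samples, so the stretch met long B blocks less than usual in both groups and closer to the usual number in L1 AMO cells. Blocks 11 and 29 (67 to 73.5 and 131 to 134.5 Mb, both B) went from 1.01 and 0.926 to 1.29 and 1.30. The A-B pair of blocks 15 and 26 (77.5 to 92.5 and 110 to 126.5 Mb) had the most counts, 13551 and 2475 against 7804 and 6594, and went from 0.390 and 0.391 to 0.479 and 0.507 (log2 0.33, SE 0.036, edgeR adjusted p = 1.53e-09). In all 5 pairs the L1 AMO values stood above the SCR AMO values, which follows largely from picking the largest called rises.

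Among the 6 longest A and the 6 longest B blocks alone, 9 of 15 A-A pairs fell and none rose, 7 of 15 B-B pairs rose and none fell, and of 36 A-B pairs 11 rose and 4 fell. Over block pairs of any length on all autosomes, 46.7% of A-A pairs fell and 30.7% of B-B pairs rose. Of such A-B pairs 13.5% rose and 8.47% fell. No share was computed over all autosomes for long blocks alone, so these counts have no matched background. The median log2 change was -0.11 for A-A, 0.12 for B-B and 0.03 for A-B pairs, with distance removed. Over all 523 pairs the A-A median was further from 0 (-0.23), and the A-B pairs leaned the other way, with 30 up, 34 down and a median of -0.05.

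Contacts of chromosome 5 with other autosomes were compared relative to the mean of each pair of chromosomes. For this comparison bins were labelled from contacts within each chromosome, pooled over the 4 samples. Trans compartment strength was 1.62 and 1.52 in SCR AMO and 1.60 and 1.53 in L1 AMO cells, and the groups overlapped (exact permutation p = 1). Its parts differed all the same. A-A contacts were 1.65 and 1.56 against 1.55 and 1.45, B-B contacts 0.875 and 0.895 against 0.957 and 1.00, and A-B contacts 0.783 and 0.811 against 0.784 and 0.7997. The A-A groups and the B-B groups did not overlap, in opposite directions, and the A-B groups did. Contacts between chromosomes served to choose among the leading eigenvectors within each chromosome and to set which sign is A. They did not otherwise enter these labels.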

How the data were processed

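Deposited values are raw counts of contacts between 500-kb bins (mm9), which the authors made with HiC-Pro (2.7.1b per the submitters' processing notes). Each L1 AMO sample came as 2 matrices, and these were summed. Whether duplicates were removed is not given in the sources used here. H3K9me3 samples were not analysed here.

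Kept bins were balanced by iterative correction (59 to 90 iterations). Labels came from contacts between autosomes, oriented by the repeat content of chromosome 1 in the study's supplement. For the trans comparison, labels came instead from contacts within chromosomes. Two-sided exact permutation tests served for single values, edgeR's quasi-likelihood test (4.0.16; mean of at least 10 counts) for block pairs and limma (3.58.1) for bin scores, with Benjamini-Hochberg adjustment over all autosomes at 0.05. DESeq2 1.42.0, R 4.3.3, Python 3.11.15 and numpy 2.4.6 were used. Scripts were tested on simulated data.

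Regions named are the 6 longest A and B blocks, the first and last block, the 5 largest rises and falls of block pairs and of bins, and bins that changed sign; others were named after their values were seen. Members and lists were chosen with earlier results of these data known. Genes were not placed in bins, since no mm9 annotation was used here.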

Additional observations from a re-analysis of the deposited data

How the results depend on the processing

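The share within 2 Mb gave differences from -0.828 to 1.48 percentage points when each sample was left out, and -0.854 with contacts inside a bin left out, so it has no stable direction. Trans compartment strength ranged from -0.0500 to 0.0489 without each sample and was 0.00278 with the first matrix of each L1 AMO sample. The B-B difference was -0.0459 when the 20% of bins with the most extreme label scores stood for A and B. Block pairs changed numbered 129 to 278 on counts and 46 to 205 with the distance offset when each sample was left out, the lowest without SCR AMO replicate 1, 162 and 83 with DESeq2, and 173 on counts with labels from the SCR AMO samples' contacts within the chromosome. Bins changed numbered 73 to 118, the lowest without L1 AMO replicate 2. The causes were not tested, beyond the smaller number of samples.

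Of the 147 values recomputed for the comparisons, 132 kept their direction and their side of the threshold or, for counts, stayed within 1.5 times, 7 reversed, 6 became weaker and 2 stronger. With a replicate block, 280 block pairs changed on counts, 171 with the offset and 127 bins, and the paired differences of the single values equal the unpaired ones. None of the named pairs or bins crossed the threshold under the block. Deviations of samples with the same number correlated at 0.0952 and 0.0669 over 9643 pairs, so the numbers were not treated as pairing the samples. The 10 named block pairs kept their direction in the 8 alternatives run on them; without SCR AMO replicate 1 the pairs of blocks 4 and 12 and of blocks 5 and 11 had edgeR adjusted p of 0.0697 and 0.0933. Depth limits pairs of single-bin blocks in SCR AMO replicate 2.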

Other observations

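The loss of distant contacts was uneven along chromosome 5. The share of a block's contacts beyond 10 Mb differed between L1 AMO and SCR AMO cells by a median of -17.6% over the 16 A blocks and of -7.67% over the 17 B blocks. The widest differences in percentage points lay in short A blocks: 33.7% and 31.1% in SCR AMO against 26.2% and 24.6% in L1 AMO cells in block 10 (65 to 67 Mb), 33.6% and 31.4% against 27.1% and 25.3% in block 16 (92.5 to 93.5 Mb), and 34.3% and 32.5% against 27.7% and 26.8% in block 14 (76.5 to 77.5 Mb). These blocks also had the highest shares in SCR AMO cells. In the long B block 9 (38 to 65 Mb) the groups overlapped, with 23.6% and 22.5% against 22.6% and 22.6%, and in the long A block 26 (110 to 126.5 Mb) they were 20.5% and 19.1% against 16.5% and 15.8%. All of these blocks were named after their values were seen, and with 2 samples a group no exact permutation test of a block can give a p under 0.33.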
